A study of Mus musculus with 9 samples.

Results

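Immediate-early genes and heat shock genes were followed in 3 populations of phagocytes sorted from the peritoneal wall of the mouse. The set holds 40 genes, 27 immediate-early and 13 heat shock, taken by symbol from a table of 28764 genes because digestion of a tissue and sorting of its cells can induce them. All 40 were in the table, and 39 passed the filter on low values (at least 1 TPM in at least 3 of 9 libraries), as did 10136 genes of the whole table. Dusp5, a nuclear phosphatase of MAP kinases, did not pass: it was listed at 0 in 8 libraries and at 0.978 TPM in the remaining one. TPM is an abundance per transcript length that is scaled within each library, so levels can be compared between genes. The rows of the table did not add up to a common total, as given with the processing below.

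All animals carried Cx3cr1 gfp/+ Ccr2 rfp/+, in which 1 allele of each chemokine receptor gene is replaced by a fluorescent reporter, and were the F1 cross of 2 Jackson Laboratories lines. The labels give neither age nor sex. Each mouse received 50 µg of Dextran-Cascade Blue intravenously 1 day earlier and was perfused with PBS. The peritoneal wall was then kept for 20 min at 37 °C in 250 µg/ml Liberase TL with the caspase inhibitor Z-VAD-FMK at 25 µM, which was also in the buffer for staining. From CD11b+ Ly6G- cells, the double-negative population (dextran-positive, MHC class II-negative, without either reporter) made up 85 to 90% of the gate and is called the majority of sessile resident macrophages in the labels. The CCR2-RFP population (class II-positive, RFP only) made up 10 to 15% and is called migratory tissue monocytes, and the CX3CR1-GFP population (class II-positive, GFP only) made up 0.5 to 1.5% and is called sessile resident macrophages. Each population has 3 libraries, labelled sort 1, 2A and 2B, and the sorts were read as 3 mice. Every library went through the same digestion, staining and sort, and no library of undigested or unsorted tissue was analysed here, so levels before and after handling cannot be told apart.

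Immediate-early genes are switched on by pre-bound factors such as SRF with its ETS partners and CREB, without new protein synthesis, when growth factors, cytokines, mechanical force or stress reach a cell. They encode transcription factors of the AP-1, EGR, NR4A and KLF families and feedback regulators that end the response, such as DUSP phosphatases and the RNA-binding protein ZFP36. Heat shock genes are driven by the factor HSF1, which binds repeats of the unit nGAAn when unfolded proteins accumulate, and they encode chaperones that hold, fold or refold proteins. In macrophages some of these genes also belong to the resting state or to inflammatory activation, so their presence alone does not date an induction.

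The sort gates were visible in the values. Ccr2 was at 107 ± 10.4 TPM (mean ± SD, n = 3) in the CCR2-RFP libraries, against 2.80 ± 1.60 in the double-negative and 5.33 ± 1.22 in the CX3CR1-GFP libraries. Cx3cr1 was listed at 0 in the 6 libraries of the other populations and at 6.51, 16.4 and 4.13 TPM in the CX3CR1-GFP libraries. Csf1r, the receptor of the macrophage growth factor, was at 207 ± 29.4, 63.4 ± 3.77 and 204 ± 7.38 TPM in the double-negative, CCR2-RFP and CX3CR1-GFP libraries. The summed TPM of 6 skeletal muscle markers (Acta1, Ckm, Myh4, Mylpf, Tnnt3, Tnnc2), all present in the table and none at 0 throughout, stood apart in sort 2A. For sort 1, sort 2A and sort 2B the sum came to 41.1, 907 and 39.7 TPM for CCR2-RFP cells, 255, 1563 and 179 TPM for CX3CR1-GFP cells, and 238, 323 and 270 TPM for double-negative cells. Summed ribosomal protein genes also moved with population, at 9384 ± 1304, 16565 ± 948 and 8271 ± 279 TPM in the double-negative, CCR2-RFP and CX3CR1-GFP libraries, and summed mitochondrial genes were at 16478 ± 3341, 9282 ± 1553 and 12685 ± 3369 TPM. The sum of 4 mast cell markers (Cpa3, Mcpt4, Tpsb2, Cma1), none at 0 throughout, was 0.784 to 6.39 TPM in double-negative, 6.46 to 33.6 TPM in CCR2-RFP and 0.0601 to 3.73 TPM in CX3CR1-GFP libraries. That of 6 fibroblast markers (Col1a1, Col1a2, Col3a1, Dcn, Lum, Pdgfra) was 62.8 ± 49.2, 38.2 ± 24.1 and 81.7 ± 42.6 TPM in the same order. Neutrophil markers reached at most 20.6 TPM in a library. Endothelial, mesothelial, adipocyte, B cell, and T and NK cell markers reached at most 6.78 TPM. The part of these sums in the differences below was not tested, nor was that of the muscle markers. TPM hold no read depth, so the precision of a value comes here from the 3 libraries of a population alone. In these bulk samples fewer expressing cells and less RNA per cell cannot be told apart.

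Several immediate-early transcripts were among the most abundant messages of all 3 populations. Of the 27 genes, 24 were at 1 TPM or more in all 9 libraries, 19 at 10 TPM or more, and 7 at 100 TPM or more (Fos, Junb, Jund, Klf2, Dusp1, Zfp36 and Btg2), a level that 0.466% of all rows of the table reached. The summed level of the 27 genes was 3845 ± 348 TPM in the double-negative, 3274 ± 485 TPM in the CCR2-RFP and 4447 ± 529 TPM in the CX3CR1-GFP libraries. Fos alone, the partner of JUN proteins in the AP-1 dimer, gave 34.6 ± 2.01%, 34.3 ± 2.32% and 38.5 ± 1.39% of that sum, and its row ranked between 14 and 30 of 28764 by TPM in the 9 libraries. Heat shock genes were lower as a group: all 13 were at 1 TPM or more in every library, 9 at 10 TPM or more, and only Hspa8 at 100 TPM or more. Their sum was 746 ± 54.7, 1050 ± 161 and 744 ± 60.6 TPM in the double-negative, CCR2-RFP and CX3CR1-GFP libraries. As a share of all rows of the table, heat shock genes held 0.219 ± 0.0236%, 0.285 ± 0.0527% and 0.261 ± 0.0304% in the same order. Immediate-early genes held 1.13 ± 0.0947%, 0.885 ± 0.113% and 1.56 ± 0.247%.

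**Figure D1:**
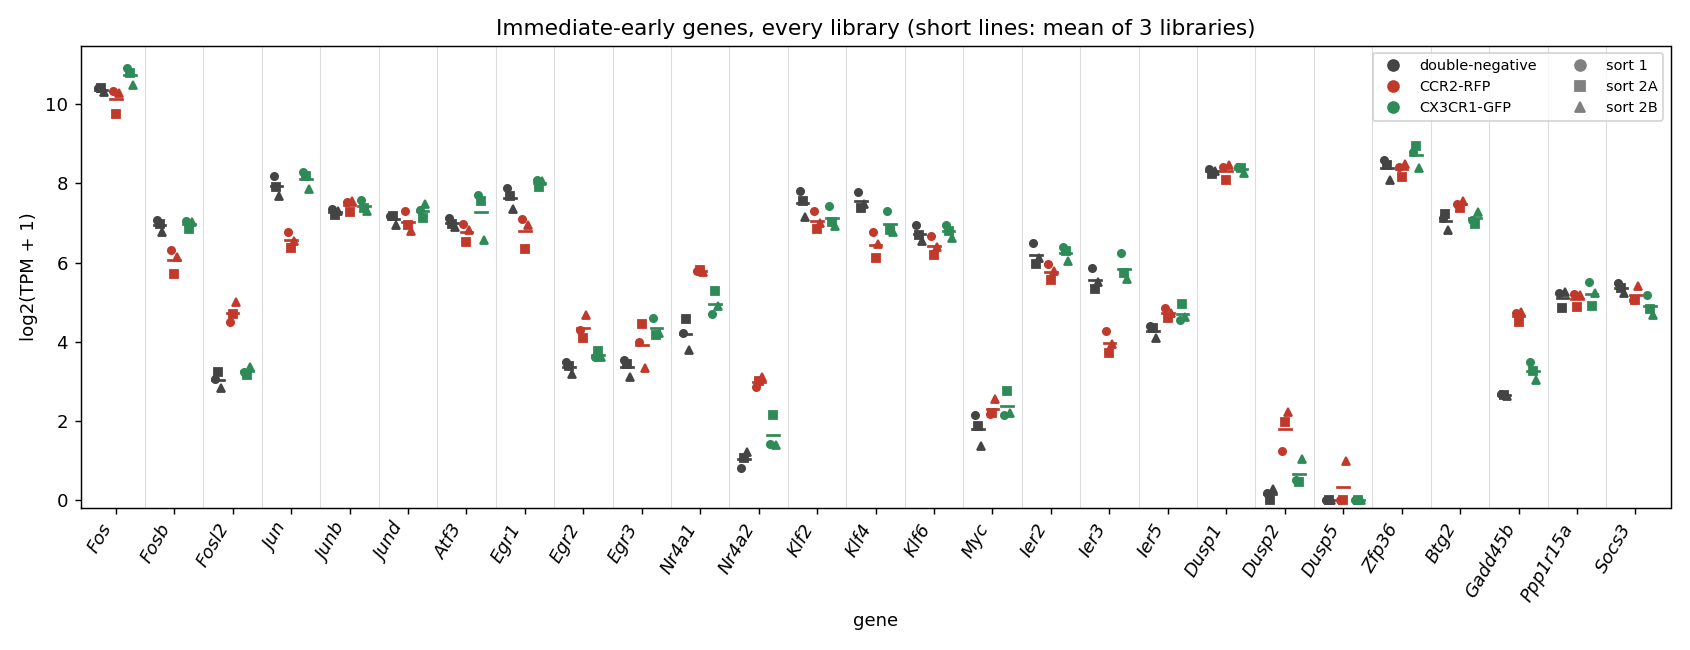
Level of the 27 immediate-early genes as log2(TPM + 1) in each of the 9 libraries, with colour for the population, symbol for the sort and a short line at the mean of 3 libraries. Fos is the highest gene in every library (862 to 1950 TPM), and Dusp1 lies in a narrow band across populations (273 to 351 TPM). Fosl2, Egr2, Nr4a1, Nr4a2, Dusp2, Btg2 and Gadd45b have their CCR2-RFP libraries above all others.

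Across populations, differences were tested with limma on log2(TPM + 1) over all 10136 genes, and a gene was called at an adjusted p below 0.05. A fold change given below is on that scale and understates the change of low genes. Each library enters 2 of the 3 comparisons, so these are not independent of each other. Between CCR2-RFP and double-negative cells 24.8% of all genes were called (14.9% higher and 9.88% lower in CCR2-RFP), and 17 of 39 members were, 12 higher and 5 lower. Between CX3CR1-GFP and CCR2-RFP cells 26.3% of all genes were called (8.96% higher and 17.3% lower in CX3CR1-GFP), and 15 of 39 members were, 5 higher and 10 lower. Between CX3CR1-GFP and double-negative cells 2.77% of all genes and 0 of 39 members were called. An F test over the 3 populations called 27.4% of all genes and 17 of 39 members, 11 immediate-early and 6 heat shock. At an unadjusted p below 0.05, 21 of 39 members beside 34.8% of all genes passed in the comparison of CCR2-RFP with double-negative cells, and 20 beside 37.7% in that of CX3CR1-GFP with CCR2-RFP cells. The lists were not tested against other genes. The counts of called members include Dusp2 in the 2 comparisons with CCR2-RFP cells. It passed the filter mainly through the libraries of that population, where it was highest.

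The immediate-early members moved in both directions. In CCR2-RFP against double-negative cells 6 were higher, 5 lower and 15 not called, with a median log2 difference of -0.03 beside 0.09 over all genes. In CX3CR1-GFP against CCR2-RFP cells 5 were higher, 6 lower and 15 not called, with a median of 0.10 beside -0.11. The heat shock members were called in 1 direction only. In CCR2-RFP against double-negative cells 6 of 13 (46.2%) were higher and 0 lower (median 0.47), beside 14.9% and 9.88% of all genes. In CX3CR1-GFP against CCR2-RFP cells 0 were higher and 4 (30.8%) lower (median -0.55), beside 8.96% and 17.3% of all genes. Calls over all genes thus leaned the same way in both comparisons. Scaling bears on these counts. When TPM were rescaled after leaving out Siglece, Rn18s, mitochondrial and ribosomal protein genes, the median over all genes went from 0.09 to -0.07 in the first comparison and from -0.11 to 0.13 in the second, and the share of calls that were higher went from 60.2% to 44.2% and from 34.1% to 59.4%. The members' own counts in CCR2-RFP against double-negative cells became 3 heat shock genes higher and 8 immediate-early genes lower. In CX3CR1-GFP against CCR2-RFP cells they became 2 heat shock genes lower and 11 immediate-early genes higher.

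**Figure D2:**
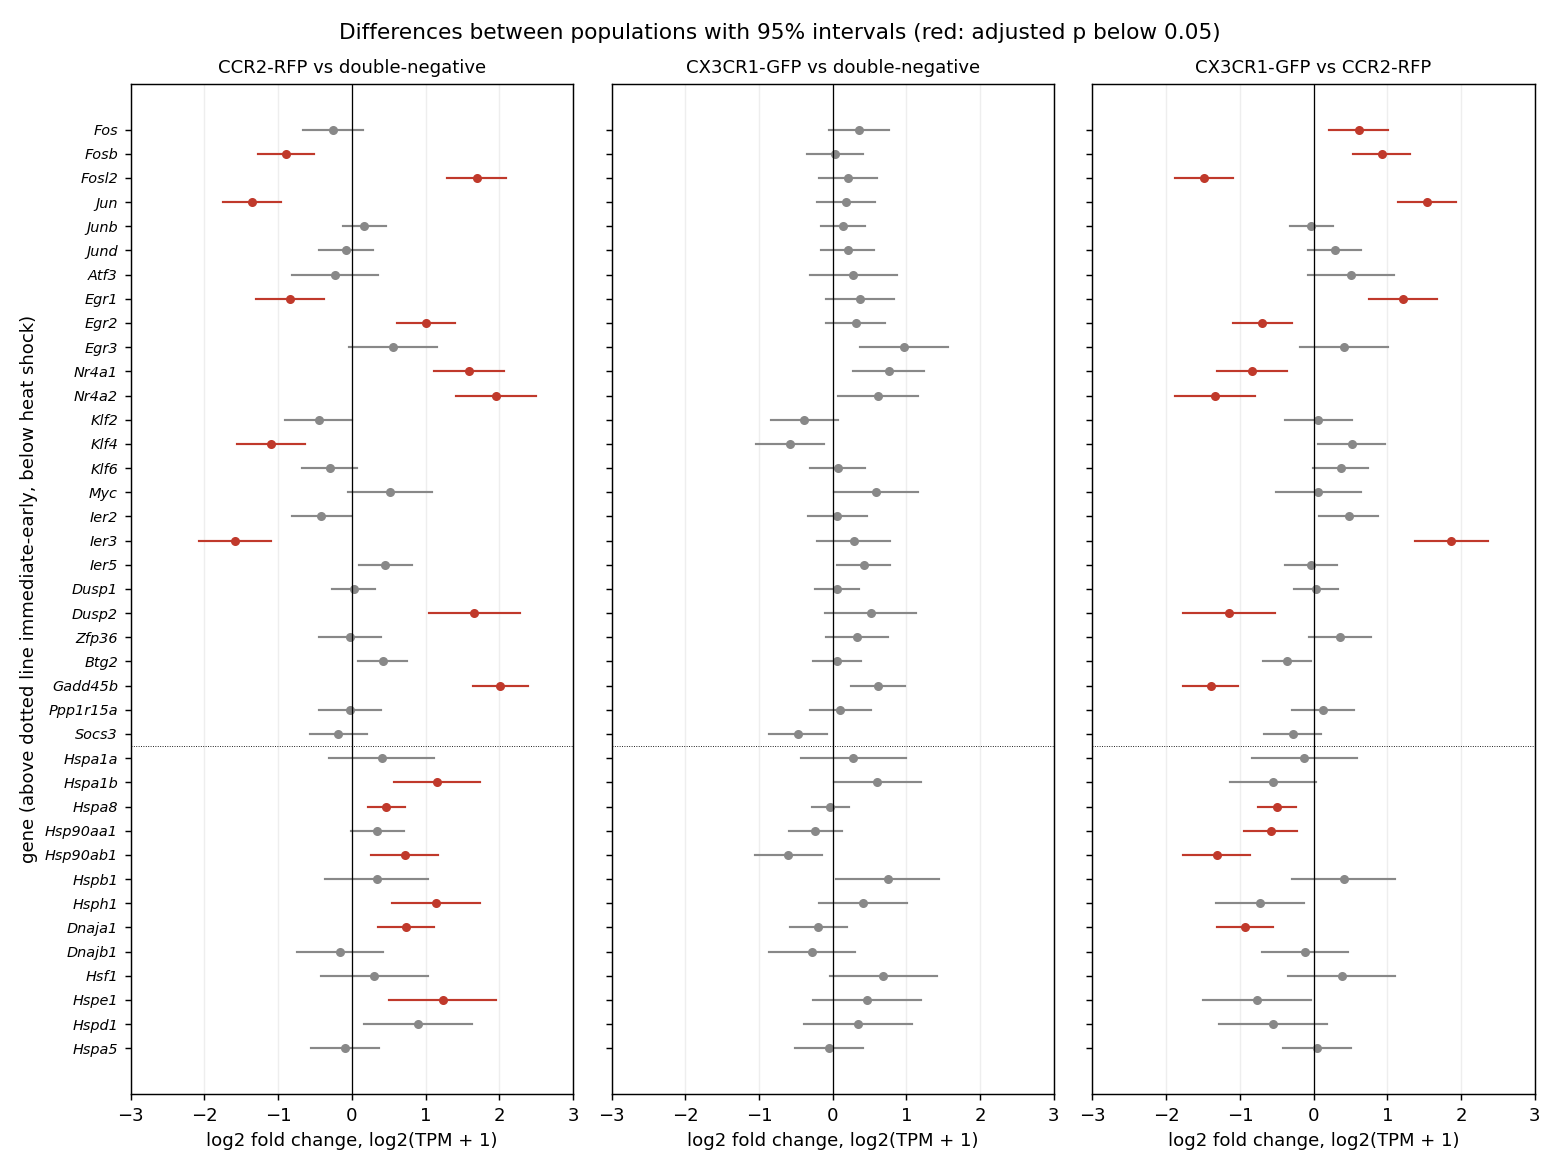
Difference of each of the 39 tested members in log2(TPM + 1) between populations, with its 95% interval from limma. Red marks an adjusted p below 0.05: immediate-early genes (above the dotted line) lie on both sides of 0 in the left and right panels, called heat shock genes lie above 0 on the left and below 0 on the right, and the middle panel has no red point.

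Among the AP-1 subunits, 1 of 7 was higher and 2 were lower in CCR2-RFP against double-negative cells. In CX3CR1-GFP against CCR2-RFP cells 3 were higher and 1 lower. That is 42.9% and 57.1% called, beside 24.8% and 26.3% of all genes. Jun, the JUN protein with strong transactivation (chr4:95049034-95052222, minus strand, mm10), was at 291, 239 and 205 TPM in the double-negative libraries of sorts 1, 2A and 2B. Its CCR2-RFP libraries were at 109, 82.4 and 92.7 TPM and its CX3CR1-GFP libraries at 313, 289 and 231 TPM. The CCR2-RFP libraries lay below all 6 others, and the double-negative and CX3CR1-GFP libraries overlapped. Jun was 0.390-fold in CCR2-RFP against double-negative cells (log2 -1.36, SE 0.178, adjusted p = 0.000292) and 2.91-fold in CX3CR1-GFP against CCR2-RFP cells (adjusted p = 0.000148). An antisense gene, Junos, shares 232 of the 3189 exon bases of Jun on the other strand. The strand setting of the counting was not given in the sources used. Reads within these 232 bases therefore cannot be told apart between the pair.

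Fosb, a FOS paralog, followed a similar order. It was at 134, 126 and 109 TPM in double-negative, 79.3, 51.0 and 69.2 TPM in CCR2-RFP and 132, 114 and 129 TPM in CX3CR1-GFP libraries, again with the CCR2-RFP libraries below all others. The difference was -0.89 in log2 against double-negative cells (adjusted p = 0.00346) and 0.92 in CX3CR1-GFP against CCR2-RFP cells (adjusted p = 0.00295). Fosl2 (chr5:32135801-32157842), which encodes the late and longer-lived FOS-related protein FRA2, was instead highest in CCR2-RFP cells. Its double-negative libraries were at 7.36, 8.38 and 6.15 TPM, its CCR2-RFP libraries at 21.7, 25.2 and 30.9 TPM, and its CX3CR1-GFP libraries at 8.36, 7.92 and 9.37 TPM. Fosl2 was 3.23-fold in CCR2-RFP against double-negative cells (log2 1.69, SE 0.179, adjusted p = 7.18e-05) and 0.357-fold in CX3CR1-GFP against CCR2-RFP cells (adjusted p = 0.000192).

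Fos (chr12:85473890-85477273) varied less. It was at 1355, 1364 and 1263 TPM in double-negative, 1290, 862 and 1243 TPM in CCR2-RFP and 1950, 1762 and 1434 TPM in CX3CR1-GFP libraries, so the CX3CR1-GFP libraries lay above all others while the remaining populations overlapped. It was 1.53-fold in CX3CR1-GFP against CCR2-RFP cells (log2 0.61, adjusted p = 0.0320). That call was lost without the CX3CR1-GFP library of sort 1 (adjusted p = 0.107) or of sort 2A (0.0716), without the CCR2-RFP library of sort 2A (0.101) or of sort 2B (0.0523), and without the double-negative library of sort 1 (0.0505). It was also lost with no filter (0.134), without the intensity trend (0.0540) and with only the 2 populations fitted (0.07002), 11 of 21 other settings in all. Against double-negative cells its log2 interval was -0.66 to 0.15 in CCR2-RFP and -0.05 to 0.76 in CX3CR1-GFP cells.

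Junb and Jund, the JUN paralogs that can restrain JUN, and Atf3, a stress-induced repressor, were not called in any comparison. Junb stayed between 148 and 192 TPM over the 9 libraries and Jund between 111 and 179 TPM. The log2 interval of CCR2-RFP against double-negative cells was -0.13 to 0.46 for Junb and -0.44 to 0.28 for Jund. Jund shares 543 exon bases with Gm11175 and Junb 173 with Prdx2, both on the opposite strand. Atf3 was at 140, 125 and 118 TPM in double-negative, 125, 90.3 and 113 TPM in CCR2-RFP and 207, 187 and 94.9 TPM in CX3CR1-GFP libraries, with sort 2B of the last population below the others of its group. Without that library Atf3 passed the test in CX3CR1-GFP against CCR2-RFP cells (log2 0.85, adjusted p = 0.00584). Under the rescaling Jund (0.0281) and Atf3 (0.0389) passed as higher in the same comparison.

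The make-up of each AP-1 family does not depend on how libraries are scaled, and it was looked at after these values were seen. Of the summed TPM of Jun, Junb and Jund, Jun held 48.6, 45.0 and 42.4% in double-negative libraries, 24.3, 22.8 and 23.6% in CCR2-RFP libraries and 47.2, 48.7 and 40.7% in CX3CR1-GFP libraries. Junb held 29.1 ± 2.79%, 43.9 ± 3.72% and 28.2 ± 0.610%, and Jund 25.6 ± 1.54%, 32.5 ± 3.62% and 26.2 ± 4.59%. Jun was thus the most abundant JUN transcript in the double-negative and CX3CR1-GFP libraries, and Junb was in the CCR2-RFP libraries. Within the FOS family, Fosl2 held 0.492, 0.559 and 0.446% in double-negative libraries, 1.56, 2.69 and 2.30% in CCR2-RFP libraries and 0.400, 0.420 and 0.596% in CX3CR1-GFP libraries, beside 90.6 to 93.5% for Fos over the 9 libraries.

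**Figure D3:**
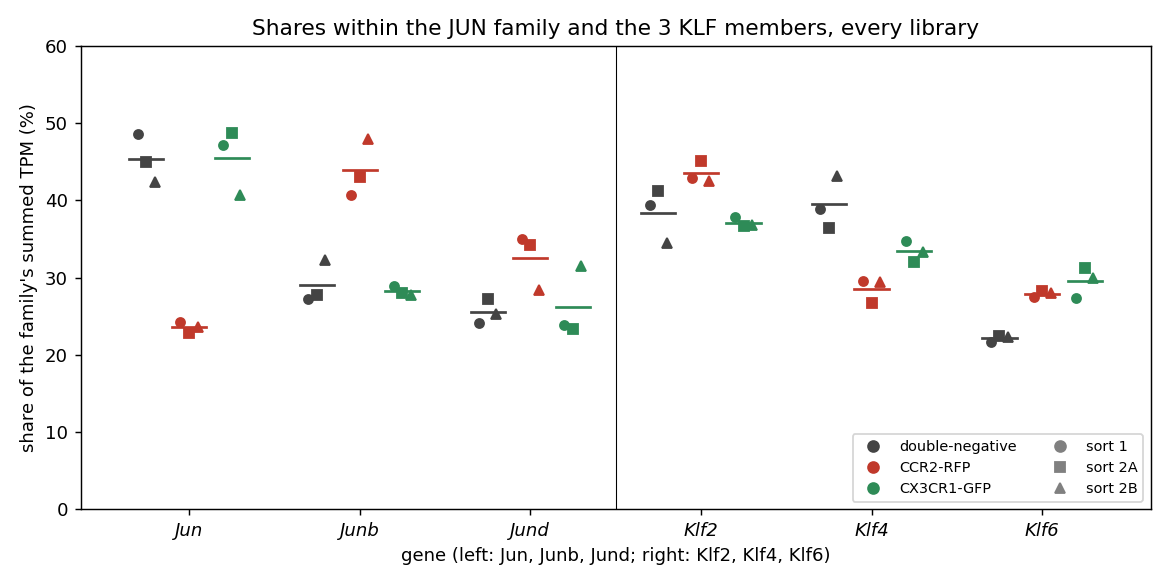
Share of each JUN gene in the summed TPM of Jun, Junb and Jund (left) and of each KLF gene in that of Klf2, Klf4 and Klf6 (right), in percent, for every library, with a line at the mean of 3. Jun holds 22.8 to 24.3% in the CCR2-RFP libraries and 40.7 to 48.7% in the other 6, and Klf6 holds 21.7 to 22.4% in the double-negative libraries and 27.4 to 31.3% in the others.

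Of the other early transcription factors, 3 of 9 were higher and 2 lower in CCR2-RFP against double-negative cells, and 1 was higher and 3 lower in CX3CR1-GFP against CCR2-RFP cells. The EGR genes, zinc finger factors that share a GC-rich site, did not move as 1 group. Egr1 was at 237, 204 and 162 TPM in double-negative, 137, 80.3 and 123 TPM in CCR2-RFP and 269, 239 and 264 TPM in CX3CR1-GFP libraries, with no overlap between any pair of populations. Its log2 difference was -0.84 in CCR2-RFP against double-negative cells (adjusted p = 0.0138) and 1.21 in CX3CR1-GFP against CCR2-RFP cells (adjusted p = 0.00183), and the first call was lost without the double-negative library of sort 1 (adjusted p = 0.0599).

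Egr2 (chr10:67535475-67542188), with a role in macrophage alternative activation, was at 10.2, 9.48 and 8.04 TPM in double-negative, 18.7, 16.2 and 24.4 TPM in CCR2-RFP and 11.2, 12.6 and 11.3 TPM in CX3CR1-GFP libraries. The CCR2-RFP libraries were above all others. Its log2 difference was 1.01 in CCR2-RFP against double-negative cells (2.01-fold, adjusted p = 0.00214) and -0.70 in CX3CR1-GFP against CCR2-RFP cells (adjusted p = 0.0162). The second call was lost under the rescaling above (adjusted p = 0.113) and without the CCR2-RFP library of sort 2B (0.0660). Egr3 was at 10.6, 9.87 and 7.69 TPM in double-negative, 14.9, 20.9 and 9.11 TPM in CCR2-RFP and 23.4, 17.0 and 17.7 TPM in CX3CR1-GFP libraries. No comparison called it (F test, adjusted p = 0.0525). Without the CCR2-RFP library of sort 2B, its adjusted p was 0.0306 in CCR2-RFP and 0.0469 in CX3CR1-GFP against double-negative cells.

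The NR4A genes encode orphan nuclear receptors that are induced by signals through cAMP and calcium and, in myeloid cells, by inflammatory signals. Nr4a1 (chr15:101254269-101274795) was at 17.7, 23.0 and 12.8 TPM in double-negative, 53.8, 55.7 and 53.6 TPM in CCR2-RFP and 25.0, 37.8 and 28.8 TPM in CX3CR1-GFP libraries, so the 3 populations did not overlap. It was 3.01-fold in CCR2-RFP against double-negative cells (log2 1.59, SE 0.215, adjusted p = 0.000360). Against CCR2-RFP cells, CX3CR1-GFP cells were at 0.562-fold (adjusted p = 0.0164), a call that was lost under the rescaling (0.106) and without the CX3CR1-GFP library of sort 1 (0.0589).

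Nr4a2 (chr2:57106830-57124003) had the same order at a lower level: 0.754, 1.10 and 1.31 TPM in double-negative, 6.26, 7.01 and 7.64 TPM in CCR2-RFP and 1.65, 3.44 and 1.62 TPM in CX3CR1-GFP libraries. The log2 difference was 1.96 in CCR2-RFP against double-negative cells (3.89-fold, adjusted p = 0.000211) and -1.34 in CX3CR1-GFP against CCR2-RFP cells (adjusted p = 0.00253). For both genes the CX3CR1-GFP libraries lay between the other populations, and neither was called against double-negative cells (adjusted p = 0.105 and 0.260).

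The KLF factors are abundant in quiescent macrophages as well as induced early. Klf4 (chr4:55527143-55532466) was at 219, 166 and 178 TPM in double-negative, 109, 68.1 and 87.9 TPM in CCR2-RFP and 157, 113 and 109 TPM in CX3CR1-GFP libraries. The double-negative libraries were above all others. The log2 difference was -1.09 in CCR2-RFP against double-negative cells (0.468-fold, adjusted p = 0.00300). In CX3CR1-GFP against CCR2-RFP cells it was 0.51 and did not pass (adjusted p = 0.0951). With the sort as a block, which pairs the libraries of a sort label, read as a mouse, it did (adjusted p = 0.0207). It also passed under median-of-ratios scaling (0.0434) and under the rescaling (0.0116).

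Klf2, a restraint on NF-kB signalling, was at 222, 188 and 142 TPM in double-negative, 158, 115 and 127 TPM in CCR2-RFP and 170, 129 and 120 TPM in CX3CR1-GFP libraries. It was not called against double-negative cells in CCR2-RFP (log2 -0.45, adjusted p = 0.146), but passed with the sort as a block (0.0441) and under the rescaling (0.0325). Klf6, at 72.1 to 123 TPM over the 9 libraries, was not called in any comparison, with a log2 interval of -0.68 to 0.07 in CCR2-RFP against double-negative cells. Under the rescaling it passed as lower there (adjusted p = 0.0407) and as higher in CX3CR1-GFP against CCR2-RFP cells (0.0109, and 0.0461 under median-of-ratios scaling). Its share of the summed KLF level was 22.2 ± 0.406% for double-negative, 27.9 ± 0.433% for CCR2-RFP and 29.5 ± 1.97% for CX3CR1-GFP libraries, while that of Klf4 was 39.5 ± 3.42%, 28.6 ± 1.62% and 33.4 ± 1.36%. Myc, the growth regulator, was low at 1.59 to 5.76 TPM and was not called.

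Of the 10 feedback regulators tested, 2 were higher and 1 lower in CCR2-RFP against double-negative cells, and 1 was higher and 2 lower in CX3CR1-GFP against CCR2-RFP cells. Ier3 (chr17:35821684-35822923), a regulator of cell survival and of ERK signalling, was at 57.2, 39.0 and 44.3 TPM in double-negative, 18.2, 12.2 and 14.4 TPM in CCR2-RFP and 74.5, 52.1 and 46.6 TPM in CX3CR1-GFP libraries. The CCR2-RFP libraries were below all others. It was 0.333-fold in CCR2-RFP against double-negative cells (log2 -1.58, SE 0.222, adjusted p = 0.000455) and 3.66-fold in CX3CR1-GFP against CCR2-RFP cells (adjusted p = 0.000173).

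Gadd45b (chr10:80930073-80932204), which acts on stress kinases and DNA demethylation, was instead highest in CCR2-RFP cells. It was at 5.39, 5.27 and 5.14 TPM in double-negative, 25.5, 21.6 and 26.0 TPM in CCR2-RFP and 10.2, 8.63 and 7.18 TPM in CX3CR1-GFP libraries, with no overlap between populations. The log2 difference was 2.01 in CCR2-RFP against double-negative cells (4.04-fold, SE 0.167, adjusted p = 1.75e-05). It was -1.40 in CX3CR1-GFP against CCR2-RFP cells (adjusted p = 0.000182). Dusp2, a nuclear phosphatase of ERK and p38 that is prominent in leukocytes, was low throughout: 0.123, 0 and 0.204 TPM in double-negative, 1.34, 2.91 and 3.68 TPM in CCR2-RFP and 0.424, 0.364 and 1.03 TPM in CX3CR1-GFP libraries. It passed the filter mainly through the CCR2-RFP libraries, so its calls (adjusted p = 0.00150 against double-negative cells and 0.0124 in CX3CR1-GFP against CCR2-RFP cells) follow in part from that. The second call was lost without the CCR2-RFP library of sort 2B (adjusted p = 0.0553) and with no filter on low values (0.0535).

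The feedback genes Dusp1, Zfp36 and Ppp1r15a were abundant. Dusp1, which inactivates p38 and JNK, was at 315 ± 15.0, 322 ± 43.0 and 328 ± 18.0 TPM in the double-negative, CCR2-RFP and CX3CR1-GFP libraries. Its log2 interval was -0.27 to 0.32 in CCR2-RFP and -0.24 to 0.36 in CX3CR1-GFP against double-negative cells, and -0.26 to 0.33 between the reporter populations. Zfp36, which destabilizes cytokine messages, was at 338 ± 59.8, 329 ± 37.2 and 425 ± 83.2 TPM. Ppp1r15a, the phosphatase subunit that restores translation after stress, was at 33.9 ± 5.04, 33.2 ± 4.10 and 36.7 ± 7.65 TPM. Zfp36 passed as higher in CX3CR1-GFP against CCR2-RFP cells under the rescaling (log2 0.66, adjusted p = 0.0218). None of these 3 genes was otherwise called, which at 3 libraries a population does not show that their levels were equal.

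Ier2, a short-lived nuclear protein, was at 88.9, 61.0 and 68.8 TPM in double-negative, 61.9, 46.3 and 54.0 TPM in CCR2-RFP and 83.9, 77.9 and 64.9 TPM in CX3CR1-GFP libraries. It did not pass in CX3CR1-GFP against CCR2-RFP cells (log2 0.48, adjusted p = 0.0767). It did with the sort as a block (0.0414), under median-of-ratios scaling (0.0266) and under the rescaling (0.00678), which also called it lower in CCR2-RFP against double-negative cells (0.0211). Btg2, an antiproliferative cofactor of message decay, was at 134 ± 19.7, 178 ± 10.8 and 139 ± 15.3 TPM, with a log2 difference of 0.42 in CCR2-RFP against double-negative cells (adjusted p = 0.0659, and 0.0446 with a filter at 5 TPM). Ier5, a cofactor of HSF1, was at 18.5 ± 2.02, 25.7 ± 2.31 and 25.2 ± 3.96 TPM (log2 0.45, adjusted p = 0.0658), and passed without the CX3CR1-GFP library of sort 2A (0.0425) and with a filter at 5 TPM (0.0452). Socs3, the brake on signals through STAT3, was at 40.2 ± 3.55, 35.4 ± 5.46 and 29.1 ± 5.78 TPM and was not called.

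Between CX3CR1-GFP and double-negative cells limma called 0 of 39 members, also with the sort as a block. At an unadjusted p below 0.05 there were 11 members, beside 15.0% of all genes: Egr3, Nr4a1, Nr4a2, Myc, Ier5, Gadd45b, Hspa1b and Hspb1 with values above 0, and Klf4, Socs3 and Hsp90ab1 with values below 0. The estimate was above 0 for 30 of the 39 members, beside 4687 of all 10136 genes. It was above 0 for 23 of 26 immediate-early and 7 of 13 heat shock genes. Their medians were 0.24 and 0.28, beside -0.03 over all genes. The members were measured in the same libraries, so they are not separate cases. Egr3 was at 0.97 in log2 (interval 0.37 to 1.56, adjusted p = 0.0974). Gadd45b was at 0.62 (interval 0.24 to 0.99, adjusted p = 0.0942) and was the member that passed under the rescaling (0.0444).

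Short stretches upstream of some members hold the letters of sites that HSF1, CREB or SRF are known to bind. The sequences are from RefSeq (GRCm38.p6), which gave a promoter for 32 of the 40 genes, 23 immediate-early and 9 heat shock. A gene was counted when the letters were in the 250 bases upstream of any of its RefSeq starts, on either strand. By this count GAANNTTC or TTCNNGAA, a pair of facing heat shock units, occurred in 14.5% of 27025 genes, in 7 of the 9 heat shock members (Hspa1a, Hspa1b, Hspb1, Hsph1, Dnaja1, Hspe1, Hspd1) and in 3 of the 23 immediate-early members (Fosl2, Jun, Egr2). A tripled form of the heat shock element, which contains the pair, occurred in 0.514% of genes and in Hspe1 and Hspd1. Hspa1a and Hspa1b match at 247 of their 250 upstream bases, and Hspe1 and Hspd1 start head to head at a shared locus. The genes of such a pair are not separate cases in these counts. The cAMP response element TGACGTCA occurred in 1.77% of genes and in Dusp1, Btg2 and Ppp1r15a. The CArG box, the site of SRF, occurred in 1.62% of genes and in Egr2, Dusp5 and Zfp36, the EGR site GCGNGGGCG in 5.33% of genes and 12 members, and the AP-1 site TGANTCA in 7.82% of genes and Hspa5 alone. A match is a run of letters and not evidence of binding. Members without a RefSeq promoter were not searched, and sites farther than 250 bases upstream were not counted. A member that is not named may thus still have such a site. The stretches shown lie upstream of a start and outside GENCODE exons, with the matched letters in capitals, on the strand of the gene. They are given for the heat shock pair in 3 chaperone genes and in Jun, for the cAMP response element in 2 feedback genes, and for the CArG box in Egr2. Those of Dusp1 and Egr2 lie within the bounds of the GENCODE gene but upstream of an internal RefSeq start.
Hspa1a, chr17:34972229-34972284, minus strand: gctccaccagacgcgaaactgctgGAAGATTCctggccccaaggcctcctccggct
Hspa1b, chr17:34959311-34959366, minus strand: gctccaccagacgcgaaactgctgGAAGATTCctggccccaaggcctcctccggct
Hspb1, chr5:135887778-135887853, plus strand: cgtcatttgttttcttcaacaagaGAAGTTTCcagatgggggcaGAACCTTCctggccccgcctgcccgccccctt
Jun, chr4:95052319-95052374, minus strand: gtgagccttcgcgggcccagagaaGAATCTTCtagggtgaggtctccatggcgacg
Dusp1, chr17:26508584-26508639, minus strand: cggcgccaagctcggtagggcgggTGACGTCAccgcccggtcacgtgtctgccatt
Btg2, chr1:134079290-134079345, minus strand: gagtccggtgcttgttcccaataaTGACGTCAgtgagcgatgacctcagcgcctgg
Egr2, chr10:67537773-67537830, plus strand: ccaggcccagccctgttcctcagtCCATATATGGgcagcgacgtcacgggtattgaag

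The stretch was identical in Hspa1a and Hspa1b, a tandem pair of inducible HSP70 genes. Their 250 upstream bases matched at 247 positions, and their coding sequences, of 1923 and 1926 bases, were 99.6% identical in an alignment with 1915 identical bases. Of the 75-base windows of their transcripts, 54.2% in Hspa1a and 55.8% in Hspa1b occur in another gene, so the split of reads between the pair is uncertain. Hspa1a was at 109, 141 and 70.1 TPM in double-negative, 143, 208 and 84.1 TPM in CCR2-RFP and 112, 125 and 137 TPM in CX3CR1-GFP libraries, overlapping throughout, and was not called. Hspa1b was at 25.0, 39.8 and 21.9 TPM, 57.3, 91.5 and 49.2 TPM, and 38.2, 47.9 and 43.9 TPM in the same order, with the CCR2-RFP libraries above all others. It was 2.23-fold in CCR2-RFP against double-negative cells (log2 1.16, SE 0.263, adjusted p = 0.00866). Between CX3CR1-GFP and CCR2-RFP cells it did not pass (log2 -0.55, adjusted p = 0.155) except with the sort as a block (0.0462). The sum of the pair was 135 ± 44.3, 211 ± 83.4 and 168 ± 16.0 TPM in double-negative, CCR2-RFP and CX3CR1-GFP libraries. Fitted as 1 gene, the pair missed the threshold between CCR2-RFP and double-negative cells (log2 0.61, adjusted p = 0.175).

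Of the 10 cytosolic heat shock genes, 5 were higher and 0 lower in CCR2-RFP against double-negative cells. In CX3CR1-GFP against CCR2-RFP cells 0 were higher and 4 lower. That is 50% and 40% called, beside 24.8% and 26.3% of all genes. Without the CCR2-RFP library of sort 2A, 3 rather than 6 of all 13 heat shock genes were called higher in the first comparison. The count was 4 without the CCR2-RFP library of sort 2B, 4 without the double-negative library of sort 1 and 4 with no filter. The CCR2-RFP library of sort 2A held 907 TPM of muscle markers, and their part in these counts was not tested. Hspa8 (chr9:40800984-40810087), the constitutive cytosolic HSP70, was at 294, 290 and 290 TPM in double-negative, 383, 430 and 400 TPM in CCR2-RFP and 281, 306 and 270 TPM in CX3CR1-GFP libraries. The CCR2-RFP libraries were above all others. Its log2 difference was 0.47 in CCR2-RFP against double-negative cells (1.38-fold, SE 0.115, adjusted p = 0.0128) and -0.50 in CX3CR1-GFP against CCR2-RFP cells (adjusted p = 0.00927). Under the rescaling neither call held (adjusted p = 0.155 and 0.269), the first was also lost without the CCR2-RFP library of sort 2A (0.0511), and the second under median-of-ratios scaling (0.0524).

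HSP90 binds client kinases and receptors late in their folding, and has a mainly inducible form (Hsp90aa1) and a constitutive form (Hsp90ab1). Hsp90ab1 (chr17:45567775-45573271) was at 85.1, 93.9 and 65.3 TPM in double-negative, 101, 168 and 138 TPM in CCR2-RFP and 48.1, 52.2 and 58.5 TPM in CX3CR1-GFP libraries, with no overlap between populations. It was 0.402-fold in CX3CR1-GFP against CCR2-RFP cells (log2 -1.32, SE 0.203, adjusted p = 0.000919), a call that held in all 21 other settings. In CCR2-RFP against double-negative cells it was 1.64-fold (log2 0.72, adjusted p = 0.0265). That call was lost under the rescaling (0.124), with no filter (0.0775), and without the double-negative library of sort 1 (0.0561) or 2B (0.0974) or the CCR2-RFP library of sort 2A (0.0963) or 2B (0.0849).

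Hsp90aa1 was at 47.5, 42.8 and 49.6 TPM in double-negative, 61.3, 57.6 and 59.6 TPM in CCR2-RFP and 50.2, 33.7 and 36.0 TPM in CX3CR1-GFP libraries. The CCR2-RFP libraries were again above all others. Its log2 difference was 0.35 in CCR2-RFP against double-negative cells (adjusted p = 0.159) and -0.58 in CX3CR1-GFP against CCR2-RFP cells (adjusted p = 0.0238). The latter call was lost under the rescaling (0.224), median-of-ratios scaling (0.102) and no filter (0.0520), and without any 1 of 5 libraries, those of CCR2-RFP sort 1 (0.0714), 2A (0.0509) and 2B (0.0677) and of CX3CR1-GFP sort 2A (0.0693) and 2B (0.0661). Of its 75-base windows 42.8% also occur in other genes, among them pseudogenes, as do 32.8% of those of Hspa8, so the level of both is less certain than that of Hsp90ab1 (0.537%). The same limit holds for Hspb1 (46.4%), Hspd1 (29.6%), Hspe1 (11.9%) and Dnaja1 (10.4%), described below. Dnaja1 also shares exon bases with Smu1 and Gm6297 on the opposite strand.

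The co-chaperones differed among themselves. Dnaja1 (chr4:40722150-40737149), a J-domain partner that hands substrates to HSP70, was at 32.8, 25.9 and 34.1 TPM in double-negative, 46.2, 48.9 and 61.5 TPM in CCR2-RFP and 31.2, 24.4 and 25.0 TPM in CX3CR1-GFP libraries. The CCR2-RFP libraries were above all others. It was 1.67-fold in CCR2-RFP against double-negative cells (log2 0.74, adjusted p = 0.0102) and 0.525-fold in CX3CR1-GFP against CCR2-RFP cells (adjusted p = 0.00282). Dnajb1, the J-domain partner of stress-induced HSP70, was at 32.9, 22.4 and 32.1 TPM, 20.3, 41.0 and 20.0 TPM, and 22.7, 23.2 and 24.5 TPM in the same order, and was not called (log2 -0.16, adjusted p = 0.712). The CCR2-RFP library of sort 2A alone was high in its group. When all libraries of sort 2A were left out, Dnajb1 passed as lower in CCR2-RFP against double-negative cells (log2 -0.67, adjusted p = 0.0350).

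Hsph1, which resets HSP70 by exchange of its nucleotide, was at 2.57, 3.32 and 2.14 TPM in double-negative, 5.21, 11.3 and 5.82 TPM in CCR2-RFP and 3.54, 4.41 and 3.68 TPM in CX3CR1-GFP libraries. It was 2.21-fold in CCR2-RFP against double-negative cells (log2 1.14, adjusted p = 0.0102), with the library of sort 2A farthest from the others. Between CX3CR1-GFP and CCR2-RFP cells its log2 difference was -0.73 (adjusted p = 0.0716, and 0.0395 with the sort as a block). Hspb1, a small heat shock protein that holds unfolded proteins and that muscle also makes, was at 4.17, 6.28 and 3.47 TPM, 4.21, 9.95 and 4.94 TPM, and 8.76, 10.4 and 6.09 TPM in the same order. The library of sort 2A was the highest of its population in all 3, as was the muscle marker sum, and Hspb1 was not called. Among the heat shock genes, sort 2A was likewise the highest in all 3 populations for Hspa1b, Hsph1, Hsf1 and Hspa5. The part of muscle in these levels was not tested. Hsf1, the transcription factor of the response, was low at 1.54 to 6.34 TPM and was not called, with a log2 interval of -0.42 to 1.04 in CCR2-RFP against double-negative cells.

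Of the 3 organelle chaperones, 1 was higher in CCR2-RFP against double-negative cells and none was called in CX3CR1-GFP against CCR2-RFP cells. That is 33.3% and 0% called, beside 24.8% and 26.3% of all genes. Hspe1 and Hspd1 encode the small and the large subunit of the mitochondrial chaperonin and are transcribed from a shared, head-to-head start on chromosome 1, where their exons share 112 bases on opposite strands. Hspe1 (chr1:55088132-55091307) was at 10.5, 15.8 and 18.4 TPM in double-negative, 28.2, 47.2 and 33.6 TPM in CCR2-RFP and 19.4, 33.3 and 13.1 TPM in CX3CR1-GFP libraries. The CCR2-RFP libraries were above all double-negative ones and overlapped with CX3CR1-GFP. It was 2.35-fold in CCR2-RFP against double-negative cells (log2 1.23, SE 0.328, adjusted p = 0.0194). The call was lost without the double-negative library of sort 1 (0.0774) or the CCR2-RFP library of sort 2A (0.0742) or 2B (0.0511) and with no filter (0.0682), and under the rescaling its adjusted p was 0.05003, just above the threshold. Without the CX3CR1-GFP library of sort 2A, Hspe1 passed as lower in CX3CR1-GFP against CCR2-RFP cells (log2 -1.11, adjusted p = 0.0212).

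Hspd1 was at 5.38, 5.20 and 6.68 TPM, 7.75, 13.9 and 14.0 TPM, and 9.35, 11.0 and 4.02 TPM in double-negative, CCR2-RFP and CX3CR1-GFP libraries. Its log2 difference of 0.89 in CCR2-RFP against double-negative cells did not pass (adjusted p = 0.0772), but did without the CCR2-RFP library of sort 1 (0.0439) or the CX3CR1-GFP library of sort 2B (0.0212), and with only the 2 populations fitted (0.0251). Hspa5, the HSP70 of the endoplasmic reticulum, was at 101 ± 7.96, 95.3 ± 10.1 and 101 ± 31.6 TPM and was not called, with a log2 interval of -0.55 to 0.37 in the same comparison.

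**Figure D4:**
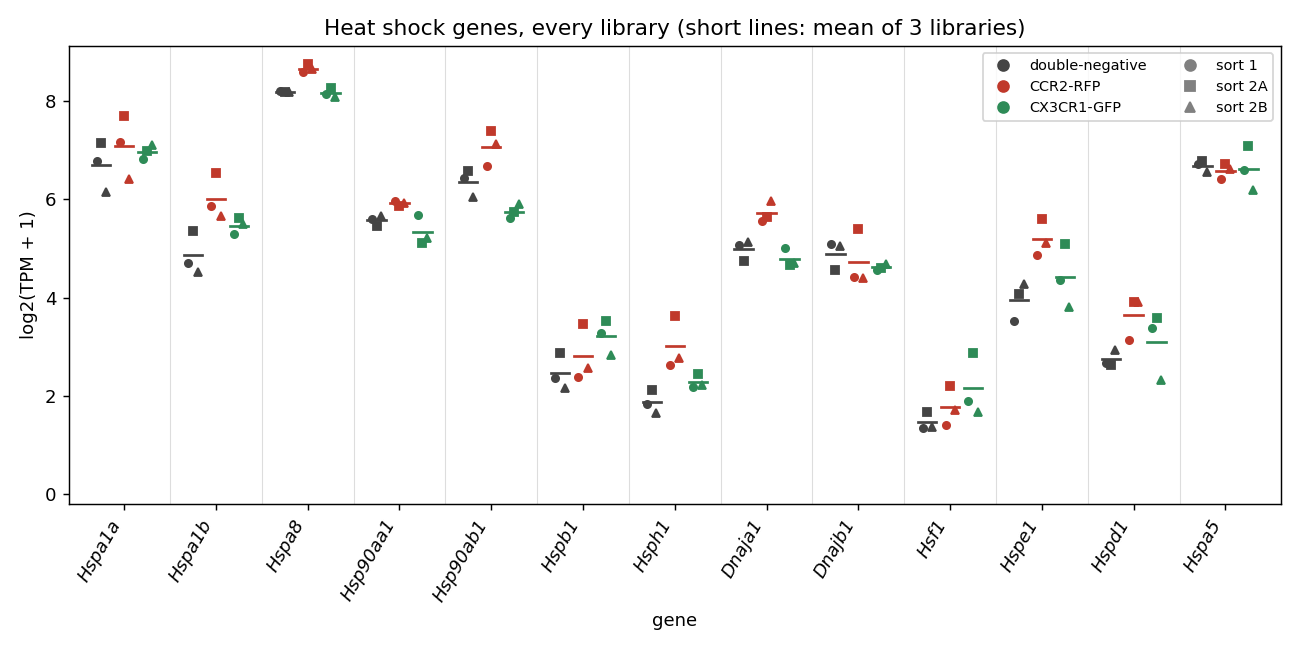
Level of the 13 heat shock genes as log2(TPM + 1) in each of the 9 libraries, with colour for the population, symbol for the sort and a short line at the mean of 3 libraries. The CCR2-RFP libraries of Hspa8 (383 to 430 TPM) and Hsp90ab1 (101 to 168 TPM) lie above all others. So do those of Hspa1b, Hsp90aa1, Hsph1 and Dnaja1. In the CCR2-RFP group the square of sort 2A is the highest point for Hspa1a, Hspa1b, Hspa8, Hsp90ab1, Hspb1, Hsph1, Dnajb1, Hsf1, Hspe1 and Hspa5. It is not the highest for Hsp90aa1, Dnaja1 and Hspd1.

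Other genes of the same pathways were read from 6 lists. In CCR2-RFP against double-negative and CX3CR1-GFP against CCR2-RFP cells, 24.8% and 26.3% of all genes were called. Beside these stood further immediate-early genes (50% and 55.6%), upstream genes (29.4% and 35.3%) and NF-kB response genes (55% and 45%). Chaperonin ring subunits were at 87.5% and 87.5%, other chaperones at 12.5% and 21.9%, and endoplasmic reticulum stress genes at 27.8% and 38.9%. These lists were not tested against all genes. Of 18 further immediate-early genes tested, 5 were higher and 4 lower in CCR2-RFP against double-negative cells, and 5 were higher and 5 lower in CX3CR1-GFP against CCR2-RFP cells. Nr4a3, the third NR4A receptor, was at 3.61, 6.21 and 3.36 TPM in double-negative, 19.8, 26.0 and 32.3 TPM in CCR2-RFP and 6.82, 8.75 and 7.63 TPM in CX3CR1-GFP libraries (log2 2.34 in CCR2-RFP against double-negative cells, adjusted p = 6.07e-05). Bhlhe40, a repressor needed for cytokine output and proliferation of some macrophages, was at 1.14 ± 0.504, 18.9 ± 1.72 and 2.98 ± 0.961 TPM (log2 3.24, adjusted p = 9.70e-06). Dusp6, the cytoplasmic ERK phosphatase, went the other way, at 26.6 ± 2.89, 6.52 ± 1.61 and 30.5 ± 4.63 TPM (log2 -1.89, adjusted p = 6.45e-05).

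Of 17 genes upstream of the early response, 4 were higher and 1 lower in CCR2-RFP against double-negative cells, 1 was higher and 5 lower in CX3CR1-GFP against CCR2-RFP cells, and none was called between CX3CR1-GFP and double-negative cells. With the block 3 were higher and 1 lower in the first comparison. Elk3, an ETS partner of SRF that can repress, was at 9.45 ± 1.38, 2.70 ± 0.0852 and 6.38 ± 1.05 TPM in double-negative, CCR2-RFP and CX3CR1-GFP libraries (log2 -1.49 in CCR2-RFP against double-negative cells, adjusted p = 0.000174). Mkl1, the actin-sensing coactivator of SRF, was at 2.48 ± 0.501, 6.83 ± 1.30 and 3.02 ± 0.638 TPM (log2 1.17, adjusted p = 0.00243). Crem, of the CREB family, was at 5.22 ± 0.956, 8.77 ± 0.467 and 3.25 ± 0.916 TPM (log2 0.66, adjusted p = 0.0392, and 0.0693 with the sort as a block).

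NF-kB response genes, which share inducers with the early genes, were called in all 3 comparisons. Of 20 tested, 10 were higher and 1 lower in CCR2-RFP against double-negative cells, 7 higher and 1 lower in CX3CR1-GFP against double-negative cells, and 3 higher and 6 lower in CX3CR1-GFP against CCR2-RFP cells. With the sort as a block the counts were 11 and 1, 6 and 1, and 2 and 5. Il1b, an inflammatory cytokine, was at 5.31, 9.49 and 7.78 TPM in double-negative, 191, 265 and 225 TPM in CCR2-RFP and 35.0, 98.5 and 35.8 TPM in CX3CR1-GFP libraries, without overlap. Its log2 difference was 4.76 in CCR2-RFP (adjusted p = 1.01e-05) and 2.61 in CX3CR1-GFP against double-negative cells (adjusted p = 0.00391). Tnfaip3, the A20 inhibitor of NF-kB, was at 9.33 ± 0.867, 42.2 ± 2.68 and 24.4 ± 6.58 TPM (log2 2.06 and 1.27, adjusted p = 2.66e-05 and 0.00535). Il6 was at 5.10 ± 1.45, 83.5 ± 22.5 and 1.37 ± 1.38 TPM, with a log2 difference of -5.31 in CX3CR1-GFP against CCR2-RFP cells (adjusted p = 1.54e-05).

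Further chaperones were read as the chaperonin ring and as a list of others. Of the 8 subunits of this ring, which folds actin and tubulin, 7 were higher in CCR2-RFP against double-negative cells and 7 lower in CX3CR1-GFP against CCR2-RFP cells, with a median log2 difference of 0.94 and -0.92. With the sort as a block these counts were 6 and 7. Cct8 was at 9.43 ± 1.77, 20.3 ± 1.79 and 9.72 ± 0.962 TPM in double-negative, CCR2-RFP and CX3CR1-GFP libraries (log2 1.04, adjusted p = 0.00146), Cct5 at 12.2 ± 2.12, 25.0 ± 2.48 and 10.5 ± 2.41 TPM, and Cct6a at 6.22 ± 0.307, 13.4 ± 1.89 and 7.03 ± 1.28 TPM. Of 32 other chaperones and co-chaperones, 3 were higher and 1 lower in the first comparison and 0 higher and 7 lower in the second (1 and 8 with the block). Bag1, a nucleotide exchange factor of HSP70, was at 14.2 ± 0.945, 21.8 ± 0.785 and 14.0 ± 1.78 TPM (log2 0.59, adjusted p = 0.0134). Dnaja2, a relative of Dnaja1, was at 12.5 ± 0.935, 15.7 ± 2.02 and 9.09 ± 1.23 TPM, and Hsbp1, which binds HSF1, at 26.0 ± 3.21, 30.0 ± 1.11 and 17.2 ± 2.90 TPM, and both were called as lower in CX3CR1-GFP against CCR2-RFP cells (adjusted p = 0.00815 and 0.00501).

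Of 18 endoplasmic reticulum stress genes, 5 were higher and 0 lower in CCR2-RFP against double-negative cells and 0 higher and 7 lower in CX3CR1-GFP against CCR2-RFP cells. With the sort as a block the first comparison had 3 higher and 1 lower, and the second again 0 and 7. Xbp1, a transcription factor of that response, was at 25.7, 26.8 and 26.1 TPM in double-negative, 39.6, 40.6 and 42.2 TPM in CCR2-RFP and 20.5, 21.6 and 22.8 TPM in CX3CR1-GFP libraries (log2 0.62, adjusted p = 0.00398). Pdia3, a disulfide isomerase, was at 72.5 ± 9.12, 105 ± 5.14 and 62.3 ± 7.46 TPM (adjusted p = 0.0185), and Sdf2l1, a partner of HSPA5, at 6.07 ± 2.77, 12.4 ± 2.92 and 3.57 ± 0.661 TPM (adjusted p = 0.0300, and 0.0501 with the sort as a block). Ribosomal protein genes had the same order of populations, as given above.

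The 3 libraries of each population also allowed the sorts, read as mice, to be compared. With population as a term, limma called 0 of 10136 genes and 0 of 39 members between sort 1 and sorts 2A and 2B, with a smallest adjusted p among members of 0.918. An F test over the 3 sorts called 0.00987% of all genes, 1 gene that is not a member. At an unadjusted p below 0.05 there were 6 members (Jun, Klf2, Klf4, Klf6, Ier2, Ier3), all with higher values in sort 1, beside 5.14% of all genes. The 2 classes lay on different sides: the estimate for sort 1 was above 0 for 21 of 26 immediate-early genes (median log2 0.19) and for 3 of 13 heat shock genes (median -0.16), beside a median of -0.01 over all genes. Ier3 had the largest estimate, 0.49, and Klf4 and Klf2 followed at 0.44 and 0.42.

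Single libraries also stood apart from the mean of their population. In the CCR2-RFP library of sort 2A, 22 of 26 immediate-early genes were below that mean (median log2 deviation -0.19) and 11 of 13 heat shock genes above it (median 0.40). In the CCR2-RFP library of sort 1, 18 of 26 immediate-early genes were above (0.11) and 11 of 13 heat shock genes below (-0.32). The double-negative library of sort 1 had 25 of 26 immediate-early genes above its population's mean (0.13). In CX3CR1-GFP cells the library of sort 2A had 13 of 26 immediate-early genes above and 9 of 13 heat shock genes above (0.15). Median deviations over all genes were -0.03 to 0.03 in the 9 libraries. The CCR2-RFP and CX3CR1-GFP libraries of sort 2A are those with 907 and 1563 TPM of muscle markers, and the part of these in the deviations was not tested.

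**Figure D5:**
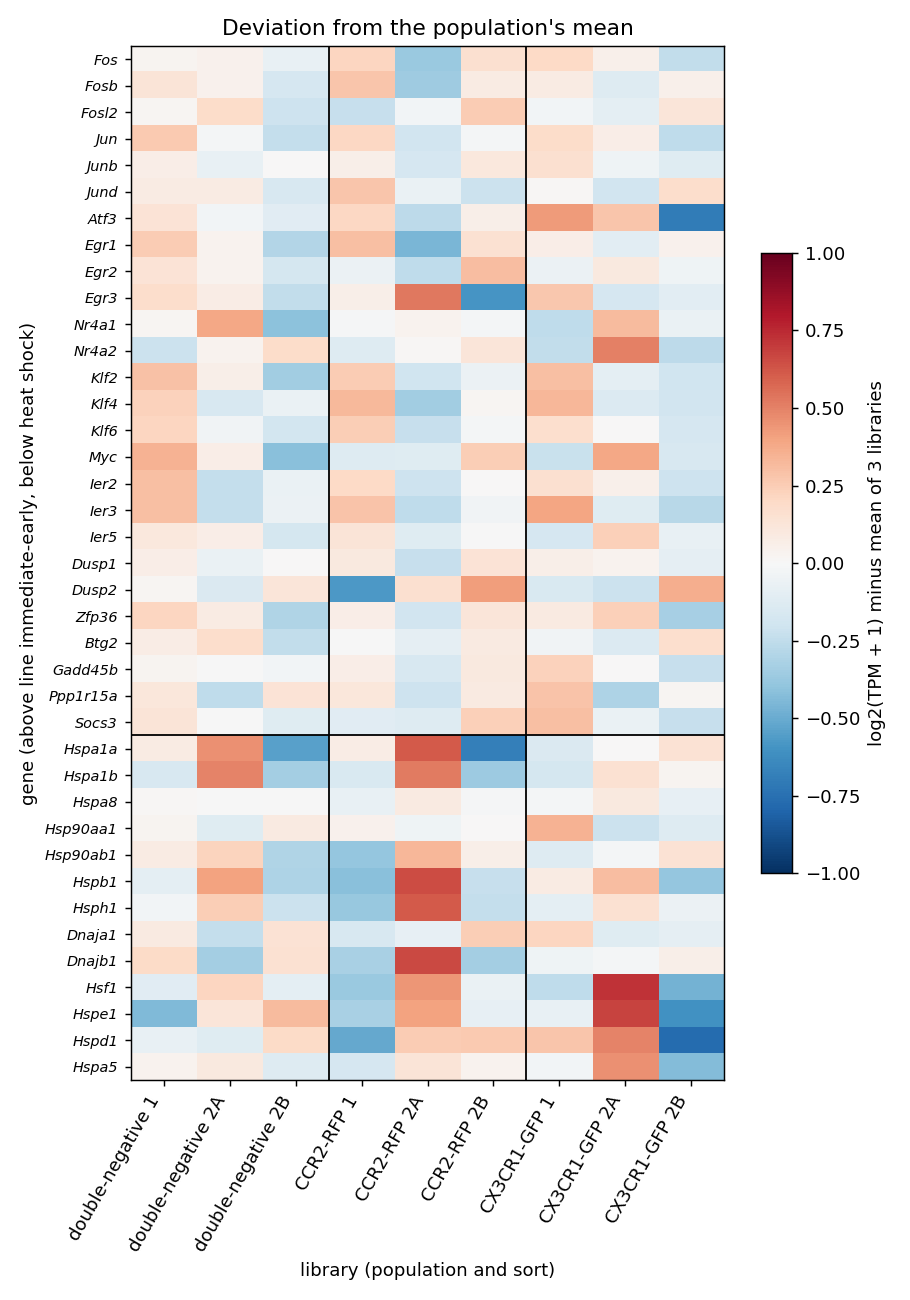
Deviation of each of the 39 tested members from the mean of its population in log2(TPM + 1), for every library, with red above and blue below the mean, and a horizontal line between immediate-early and heat shock genes. In the CCR2-RFP library of sort 2A, 22 of 26 immediate-early genes are below and 11 of 13 heat shock genes above the mean.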

How the data were processed

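The 9 libraries were grouped by the population that the title, the source name, the cell type and the heading of the column name. In 6 of them the description field names the other reporter population, and it was not used. The deposited values are TPM per gene symbol, which the authors made on mm10 with tools that the submitters' processing notes list as bcl2fastq 2.18, cutadapt 1.8.3 and Salmon 0.11.3. Not given in the sources used here are the annotation, the strand setting and the step from transcripts to genes. Per library the rows added up to between 278579 and 382828 TPM, of which a single row, Siglece, held 61107 to 123879. That total was 341337 ± 16572, 369306 ± 13049 and 286302 ± 13252 TPM in the double-negative, CCR2-RFP and CX3CR1-GFP libraries. TPM keep no read depth, so no counting error could be given.

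Genes that reached 1 TPM in 3 or more libraries were fitted on log2(TPM + 1) by limma 3.58.1 (R 4.3.3, moderated with an intensity trend, all 9 libraries, Benjamini-Hochberg over 10136 genes, calls at adjusted p below 0.05). Intervals are 95% and unadjusted. The code was tested on simulated data. The series design text says that cells of 3 mice were carried as 3 replicates, so same-numbered sorts were taken as 1 mouse. Across all genes, deviations of same-sort libraries correlated at r = 0.0315 to 0.205 and those of different sorts at -0.160 to 0.112. Over the 39 members tested the ranges were -0.269 to 0.582 and -0.558 to 0.239. A fit with the sort as a replicate block is given where it changes the call of a member or of a named gene, or the count of a list. No sample label ties a sort to a mouse, and were the sorts not separate mice, the p-values would measure technical spread only.

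The 40 members and the context lists were chosen with earlier results of these data known. From each context list up to 3 genes are named, those with the smallest adjusted p in the F test and no overlap between the highest and the lowest population. Coordinates, overlaps and windows of 75 bases shared between transcripts are from GENCODE M21 (24700 of 28764 symbols, 85.9%, matched) and promoters from RefSeq GRCm38.p6. Coding sequences were aligned with Biopython 1.88. Alternatives were other pseudocounts, filters and scalings, no trend, the block, 2 populations only and left-out libraries.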

Additional observations from a re-analysis of the deposited data

How the results depend on the processing

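Of 2444 member differences over 21 other settings, 2346 kept their side of the threshold, 68 fell out of it, 30 came to pass it and 0 called values changed sign. Values that did not pass could cross 0, such as those of Dusp1, Junb, Ppp1r15a and Zfp36 in CCR2-RFP against double-negative cells. Calls of Jun, Fosb, Fosl2 and Ier3 in both comparisons with CCR2-RFP cells, and of Gadd45b, Nr4a1, Nr4a2, Egr2 and Klf4 against double-negative cells, held in every setting in which they were fitted.

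Counts moved with scaling and with the libraries fitted. After rescaling without Siglece, Rn18s, mitochondrial and ribosomal protein genes, 990 genes, 3 heat shock and, as lower, 8 immediate-early members were called in CCR2-RFP against double-negative cells. In CX3CR1-GFP against double-negative cells 1 immediate-early member was then higher. In CX3CR1-GFP against CCR2-RFP cells 1435 genes and 11 immediate-early members were then higher, and 981 genes and 2 heat shock members lower. Median-of-ratios scaling gave 8 immediate-early members higher and 2 heat shock members lower in that comparison, and split the calls 52.1%, 50% and 45.7% higher. A filter at 5 TPM left 578 genes higher there, and no filter gave 64 higher and 82 lower genes in CX3CR1-GFP against double-negative cells.

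Leaving out 1 library gave 988 to 1673 higher genes and 3 to 7 higher heat shock members in CCR2-RFP against double-negative cells, the lowest without CCR2-RFP sort 2B and 2A respectively. In CX3CR1-GFP against double-negative cells it gave 57 to 117 higher and 62 to 155 lower genes and 0 to 1 immediate-early member. Leaving out a whole sort (added after seeing the data) leaves 2 libraries a group. Without sort 1, 2A or 2B, higher and lower genes in CCR2-RFP against double-negative cells were 664 and 507, 914 higher, and 751 and 579, with 1, 3 and 1 heat shock members higher, and 1 lower without sort 2A. In CX3CR1-GFP against double-negative cells they were 10 and 15, 33 and 55, and 12 and 17. In CX3CR1-GFP against CCR2-RFP cells they were 460 and 799, 1137 lower, and 491 and 876, with 2 heat shock members lower without sort 2A, and 1 heat shock and 2 immediate-early members lower without sort 2B. These fits have fewer libraries, and no other cause was tested.

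With the replicate block 1468 and 960, 109 and 147, and 926 and 1740 genes were higher and lower in the 3 comparisons, and no member call was changed other than those given in the report (Klf2, Klf4, Ier2, Hspa1b and Hsph1).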
